A study of Rattus norvegicus with 9 samples.

Results

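The genes described here were 7 members of the interleukin-1 (IL-1) family of cytokines and receptors: *Il1a*, *Il1b*, *Il33* and *Il18*, which encode agonists, *Il1rn*, which encodes the IL-1 receptor antagonist, and the receptor genes *Il1r1* and *Il1rl1*. They were taken by name and identified by the Ensembl ID that a supplementary list of the study pairs with each symbol, and all 7 were found among the 32545 genes counted. All 7 had enough counts to be among the 12602 genes tested. That list holds genes the study had called between TL-treated and vehicle-treated cells, so the calls of these genes against the vehicle are not independent evidence of a change, and their calls against α-GalCer rest on the same 3 TL libraries.

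RNA was sequenced from rat bone marrow-derived dendritic cells (BMDCs), 3 libraries for each of 3 groups, to see how the cells respond to lipids of a gut bacterium. One group received total lipids (TLs) of *Lactobacillus johnsonii* N6.2 at 600 ng/mL, one received α-GalCer, a synthetic glycolipid that activates invariant NKT cells when presented by CD1d, at 100 ng/mL, and one received the vehicle. The labels give all cells as wild type (WT). The methods give progenitors of Sprague-Dawley rats aged 8 to 12 weeks, whose sex is not stated, grown to day 7 with 20 ng/mL rat GM-CSF and 200 ng/mL human FLT3L and then stimulated for 6 h at 1000000 cells per well, in assays that the study calls independent. Such cultures are mixed, and their purity was judged by the surface marker CD11b/c. The TLs were in PBS without DMSO, whereas α-GalCer and the vehicle were in DMSO with PBS, so an effect of the TLs and of the missing DMSO cannot be told apart here. In bulk RNA, fewer cells of a type and less RNA per cell cannot be told apart either.

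IL-1α and IL-1β are inflammatory cytokines that bind the same receptor, IL-1R1, which then recruits the accessory protein encoded by *Il1rap* and signals through MyD88 and IRAK kinases to NF-κB and MAP kinases. IL-1Ra, the product of *Il1rn*, binds IL-1R1 without starting a signal and so competes with both. IL-33 signals through ST2, the product of *Il1rl1*, which also exists as a soluble decoy, and IL-18 has a receptor of its own. IL-1β and IL-18 are made as precursors that inflammasome-activated caspase-1 cleaves, so a transcript level does not tell how much active cytokine was present, and no protein was measured in these libraries.

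Libraries held between 15190820 and 20591105 counts. Levels are given as CPM (counts per 1000000 counts of a library, after TMM scaling), and a gene was called differentially expressed at a Benjamini-Hochberg adjusted p under 0.01 with an absolute log2 fold change over 0.3 in edgeR's quasi-likelihood test. The first principal component of all tested genes took 54.1% of the variance and set the TL libraries (-45.6 to -44.8) apart from the α-GalCer (22.0 to 25.1) and vehicle (20.8 to 23.2) libraries. On the second component, which took 9.72%, vehicle replicate 2 lay at -32.6, against 14.9 and 15.6 in the other vehicle libraries. Of the dendritic cell markers, 6 of 14 could be identified, and their summed level was 1168 to 1217 CPM in TL, 889.6 to 946.6 CPM in α-GalCer and 955.3 to 999.5 CPM in vehicle libraries. The markers in this list did not move together: against the vehicle 3 were higher with TLs, among them *Itgax* (CD11c; log2 fold change 0.54), which has the largest share of the sum (666 CPM with TLs, 457 CPM with the vehicle), and *Ccr7* (0.89), and 3 were lower, *Irf8* (-0.30), *Ciita* (-0.38) and *Clec10a* (-1.93), the last named after its value was seen. Of the monocyte and macrophage markers, 7 of 10 were identified and summed to 4159 to 4178 CPM in TL, 2400 to 2476 CPM in α-GalCer and 2431 to 2599 CPM in vehicle libraries. In that list 3 were higher with TLs and 4 lower. *Cd14* and *Itgam* were higher (log2 fold changes of 2.43 and 0.63 against the vehicle) and *Csf1r* and *Mrc1* lower (-0.59 and -1.27). *Cd14* had the largest share of the sum with TLs (2420 CPM, against 450 CPM with the vehicle). The higher sum therefore does not show a rise of these markers as a set. Markers of both lists could be identified only through the study's list of called genes, so markers that it left out could not appear. Of all tested genes with a symbol, 76.6% were called against the vehicle. The splits and sums therefore do not measure the make-up of the cultures. The part of these marker shifts in the results below was not tested. Of the T, NK and B cell list (12 genes) and the stromal, endothelial and epithelial list (12 genes), none could be identified by symbol, so those cell types were not analysed here.

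All 7 genes were called in TL-treated cells against the vehicle, 5 higher and 2 lower, where 19.4% of all tested genes were called (9.77% higher and 9.67% lower). Against α-GalCer the same 5 were higher and the same 2 lower, where 20.3% of tested genes were called (9.85% higher and 10.5% lower). Nothing is read from these counts, since the genes could be identified only through the study's own call: of the 1839 tested genes with a symbol, which were found in the same way, 76.6% were called against the vehicle and 75.0% against α-GalCer. The median log2 fold change of the 7 was 1.09 in both TL comparisons, beside -0.02 over all genes tested in each, and -0.20 against the vehicle and -0.16 against α-GalCer over those with a symbol. In neither comparison did a TL library overlap with a library of the other group for any of the 7, as was also so for 46.1% of all tested genes against the vehicle and for 51.0% against α-GalCer, and for 92.0% and 92.9% of those with a symbol. In α-GalCer-treated cells against the vehicle none of the 7 was called, as none of the 12602 genes was (0% called), although edgeR's p before adjustment was under 0.05 for 370 genes (2.94%). In that comparison DESeq2 called 2 genes and limma-voom 0, and the 7 were not among them.

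**Figure D1:**
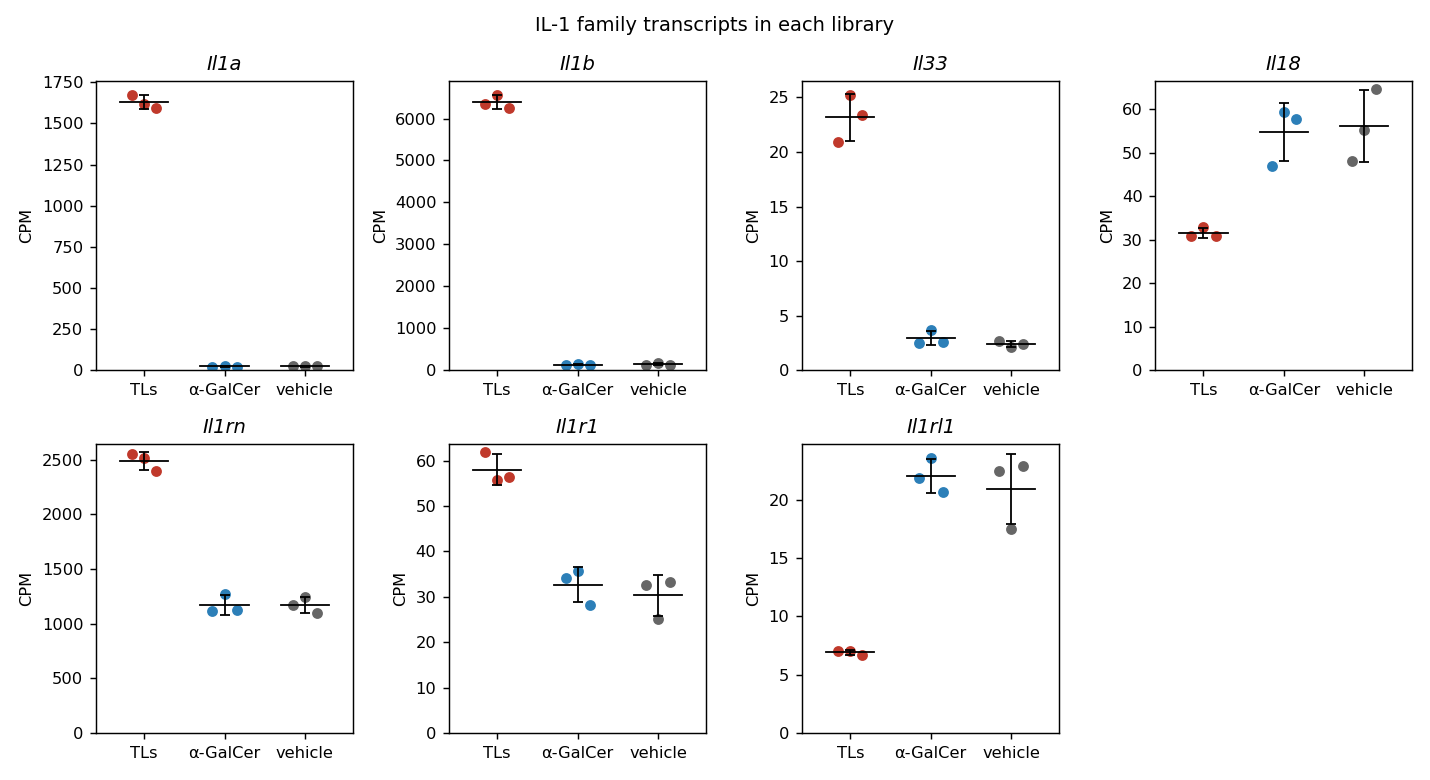
Level of each gene (CPM, linear axis from 0 and different in each panel) in the TL, α-GalCer and vehicle libraries. Points are single libraries, long bars the mean and error bars the SD (n = 3 per group); the TL points lie above the others for *Il1a*, *Il1b*, *Il33*, *Il1rn* and *Il1r1*, and below them for *Il18* and *Il1rl1*.

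The IL-1 agonists *Il1a* and *Il1b* had the largest changes of the 7. *Il1a* stood at 1675, 1617 and 1595 CPM in TL libraries, at 21.3, 27.5 and 21.7 CPM in α-GalCer libraries and at 26.7, 23.2 and 23.0 CPM in vehicle libraries. The TL libraries were far above all 6 others, which were mixed with one another. The level with TLs was 66.9-fold that of the vehicle, a log2 fold change of 6.06 (SE 0.109, adjusted p = 8.01e-11), and this was the 16th highest fold change among all tested genes. Against α-GalCer the log2 fold change was 6.12 (SE 0.109, adjusted p = 8.81e-11).

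*Il1b* stood at 6342, 6572 and 6249 CPM in TL libraries, at 125, 145 and 133 CPM in α-GalCer libraries and at 135, 174 and 129 CPM in vehicle libraries. Again the TL libraries were clear of the rest, and the highest of the other 6 was vehicle replicate 2. The level with TLs was 43.8-fold that of the vehicle, a log2 fold change of 5.45 (SE 0.118, adjusted p = 1.43e-10), the 20th highest among all tested genes, and without vehicle replicate 2 it was 5.60. Against α-GalCer the log2 fold change was 5.57 (SE 0.119, adjusted p = 1.21e-10). The reads of this single gene made up 0.599% ± 0.0141 of all counts in TL libraries, 0.0139% ± 0.000923 in α-GalCer libraries and 0.0149% ± 0.00202 in vehicle libraries (SD, n = 3 each).

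*Il33*, an alarmin best known from barrier epithelium and stroma, was low in the cells without TLs. It had 405, 368 and 334 counts in TL libraries, 43, 67 and 48 in α-GalCer libraries and 45, 37 and 42 in vehicle libraries, which is 20.9, 25.2 and 23.4 CPM with TLs, 2.50, 3.65 and 2.62 CPM with α-GalCer and 2.63, 2.10 and 2.40 CPM with the vehicle. All 9 libraries were above 3 counts, the number that a count of 0 would leave possible. Its level with TLs was 9.73-fold that of the vehicle (log2 fold change 3.28, SE 0.176, adjusted p = 1.71e-07) and 7.91-fold that of α-GalCer (log2 fold change 2.98, SE 0.172, adjusted p = 2.79e-07). With so few counts in the lower groups, its SE was the largest of the 7 in both comparisons. The stromal and epithelial markers that would show whether such cells were present could not be identified.

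*Il18* went the other way from the other agonists. It stood at 30.8, 32.8 and 30.8 CPM in TL libraries, at 47.0, 59.4 and 57.7 CPM in α-GalCer libraries and at 48.2, 55.2 and 64.7 CPM in vehicle libraries. The TL libraries lay close together and below each of the 6 others, whose 2 groups overlapped. The log2 fold change was -0.83 against the vehicle (SE 0.119, adjusted p = 0.000305) and -0.80 against α-GalCer (SE 0.119, adjusted p = 0.000407), so the level with TLs was 0.562 and 0.575 of theirs.

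The DNA just upstream of the annotated starts of *Il1a*, *Il1b* and *Il33*, the 3 agonist genes that rose, is shown because these genes had the largest increases of the 7. All 7 genes matched the RefSeq promoter set of the rat assembly GRCr8 by symbol, and for *Il33*, which has more than one annotated start there, the second is shown. Each line gives the 250 bases before the start, 5′ to 3′ on the gene's own strand, with TATAAA, the core TATA box, in capitals where it reads on either strand (as TTTATA on the other). The stretches are chr3:136990018-136990267 (minus strand) for *Il1a*, chr3:137036582-137036831 (minus strand) for *Il1b* and chr1:237134696-237134945 (plus strand) for *Il33*.
Il1a: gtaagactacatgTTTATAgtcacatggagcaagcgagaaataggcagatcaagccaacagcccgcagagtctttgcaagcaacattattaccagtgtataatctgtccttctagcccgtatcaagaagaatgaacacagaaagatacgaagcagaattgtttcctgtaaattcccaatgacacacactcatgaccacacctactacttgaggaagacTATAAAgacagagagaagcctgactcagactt
Il1b: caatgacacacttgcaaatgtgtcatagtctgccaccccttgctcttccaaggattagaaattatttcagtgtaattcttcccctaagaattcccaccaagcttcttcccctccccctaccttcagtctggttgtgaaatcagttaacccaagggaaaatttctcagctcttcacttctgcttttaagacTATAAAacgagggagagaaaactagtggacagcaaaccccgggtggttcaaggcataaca
Il33: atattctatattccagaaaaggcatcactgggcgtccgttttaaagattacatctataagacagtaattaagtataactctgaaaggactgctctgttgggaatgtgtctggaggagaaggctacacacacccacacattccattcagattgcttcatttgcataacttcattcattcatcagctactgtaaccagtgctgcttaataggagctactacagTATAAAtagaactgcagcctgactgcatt
TATAAA on the gene's own strand began 32 bases before the start of *Il1a*, 60 before that of *Il1b* and 29 before the second start of *Il33*, and *Il1a* held another on the opposite strand. The first annotated start of *Il33* had no match. Matches on the opposite strand stood upstream of *Il1rn* and *Il1rl1*, and *Il18* and *Il1r1* had none, while 12.9% of 33469 rat promoter windows of the same length held TATAAA on either strand. Of the other motifs searched on both strands, TGANTCA (AP-1; in 6.34% of windows) was found only before *Il1a*, TTGCNNAA (C/EBP; 9.22%) only before the second start of *Il33*, the NF-κB consensus (6.33%) only before *Il1r1*, and TTCNNNGAA (STAT; 7.67%) before none of the 7 genes. None of the matches shown overlaps another, and a match or its absence in this window says nothing of whether a factor was bound.

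The antagonist gene *Il1rn* was already abundant without TLs. It stood at 2554, 2518 and 2397 CPM in TL libraries, at 1116, 1271 and 1124 CPM in α-GalCer libraries and at 1169, 1242 and 1095 CPM in vehicle libraries. Every TL library was above the 6 others, which overlapped. The level with TLs was 2.13-fold that of either other group, a log2 fold change of 1.09 against the vehicle (SE 0.0661, adjusted p = 4.51e-07) and of 1.09 against α-GalCer (SE 0.0661, adjusted p = 4.24e-07). In rank by fold change against the vehicle it was the 398th highest gene tested.

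The receptor genes moved in opposite directions. *Il1r1*, the signalling receptor of IL-1α and IL-1β, stood at 61.9, 55.7 and 56.4 CPM in TL libraries, at 34.2, 35.6 and 28.2 CPM in α-GalCer libraries and at 32.7, 25.1 and 33.3 CPM in vehicle libraries. The TL libraries were above all others, and the lowest library of the 9 was vehicle replicate 2. The level with TLs was 1.91-fold that of the vehicle (log2 fold change 0.94, SE 0.12, adjusted p = 0.000149) and 1.78-fold that of α-GalCer (log2 fold change 0.83, SE 0.12, adjusted p = 0.000326). Without vehicle replicate 2 the log2 fold change against the vehicle was 0.81 (adjusted p = 7.06e-05).

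*Il1rl1*, which encodes the IL-33 receptor ST2, stood at 6.98, 7.06 and 6.66 CPM in TL libraries, at 21.9, 23.6 and 20.6 CPM in α-GalCer libraries and at 22.5, 17.5 and 22.8 CPM in vehicle libraries. The 3 TL libraries were nearly equal and all were below the 6 others. The log2 fold change was -1.60 against the vehicle (SE 0.123, adjusted p = 2.86e-06) and -1.67 against α-GalCer (SE 0.122, adjusted p = 1.92e-06), so the level was 0.33 and 0.313 of theirs. It was the 119th lowest fold change against the vehicle among all tested genes. The counts do not separate the membrane form of ST2 from the soluble one.

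Mast cells and basophils express *Il1rl1* strongly, and of 12 markers of these cells 1, *Gata2*, could be identified. *Gata2*, a transcription factor that these cells share with blood progenitors, stood at 9.62 to 11.6 CPM in TL libraries, 15.5 to 18.4 CPM in α-GalCer libraries and 16.8 to 18.9 CPM in vehicle libraries, a log2 fold change of -0.77 against the vehicle (adjusted p = 0.000351). It was lower with TLs, by a smaller amount than *Il1rl1*. Both genes were identified only through the study's list of called genes. Of all tested genes with a symbol, 76.6% were called against the vehicle, so nothing is read from their shared direction. The part of mast cells and basophils in the change of *Il1rl1* was not tested. Of 11 neutrophil markers *Mpo* was identified, at 427 to 435 CPM with TLs, 468 to 497 CPM with α-GalCer and 479 to 536 CPM with the vehicle, and it was not called (log2 fold change -0.22, adjusted p = 0.0113).

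**Figure D2:**
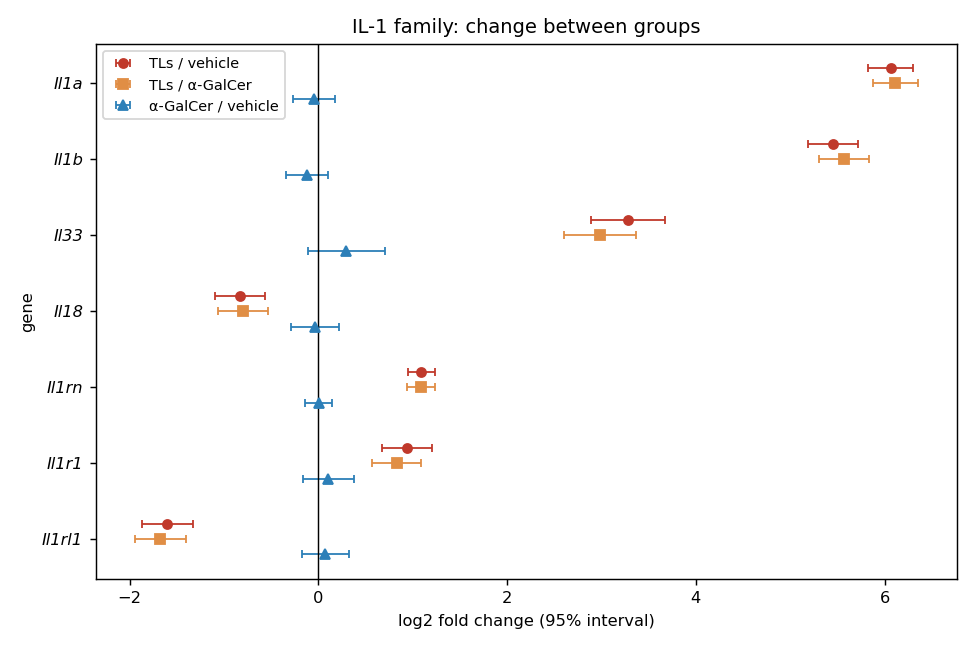
Log2 fold change of each gene with its 95% interval for TLs over vehicle, TLs over α-GalCer and α-GalCer over vehicle (edgeR, n = 3 libraries per group). The intervals of both TL comparisons exclude 0 for each of the 7 genes, from 6.06 for *Il1a* to -1.60 for *Il1rl1* against the vehicle, and all 7 intervals of α-GalCer over vehicle include 0.

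Agonists, antagonist and receptors were then compared within each library, as the log2 ratio of the CPM of 2 genes. Such a ratio is not one of molecules, since the values are not corrected for transcript length, but length cancels when the same ratio is compared between groups. For 5 ratios and 3 pairs of groups, 15 exact two-sided permutation tests were made. With 3 libraries against 3 the smallest p such a test can give is 0.1, so no ratio could reach a p of 0.05. Each of the 10 differences that involve TLs had that p (0.15 after Benjamini-Hochberg adjustment over the 15) with no overlap between the groups. The pairs were chosen with earlier results of these data known, and each difference restates the changes of its 2 genes. The separation is therefore not independent evidence of a change, and no share of non-overlapping ratios over other gene pairs was computed.

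*Il1a* and *Il1b*, the agonists that share a receptor with IL-1Ra, gained on the antagonist. The log2 ratio of *Il1b* to *Il1rn* was 1.31, 1.38 and 1.38 in TL libraries, -3.15, -3.13 and -3.08 in α-GalCer libraries and -3.11, -2.84 and -3.08 in vehicle libraries. In counts, *Il1b* had 2.48 to 2.61 reads per *Il1rn* read with TLs, against 0.112 to 0.118 with α-GalCer and 0.115 to 0.14 with the vehicle. The mean log2 ratio was 4.37 higher with TLs than with the vehicle, a 20.7-fold ratio (exact permutation p = 0.1), and 4.48 higher than with α-GalCer (exact permutation p = 0.1). The order of the counts of these 2 genes thus turned round in all 3 TL libraries.

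For *Il1a* to *Il1rn* the log2 ratio was -0.61, -0.64 and -0.59 in TL libraries, -5.71, -5.53 and -5.69 in α-GalCer libraries and -5.44, -5.73 and -5.57 in vehicle libraries. The difference was 4.97 between TLs and the vehicle (31.3-fold) and 5.03 between TLs and α-GalCer. Here *Il1a* kept fewer reads than *Il1rn* in all 9 libraries.

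The counts of *Il33* and of its receptor gene *Il1rl1* also changed order. The log2 ratio of *Il33* to *Il1rl1* was 1.57, 1.82 and 1.80 in TL libraries, -3.07, -2.66 and -2.93 in α-GalCer libraries and -3.04, -2.99 and -3.19 in vehicle libraries. In counts this was 3.00 to 3.57 *Il33* reads per *Il1rl1* read with TLs, against 0.114 to 0.154 with α-GalCer and 0.105 to 0.12 with the vehicle. The difference was 4.80 between TLs and the vehicle (27.9-fold) and 4.61 between TLs and α-GalCer.

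*Il1b* and *Il18*, the caspase-1 substrates of the family, had the largest difference of the 5 ratios. Their log2 ratio was 7.68, 7.64 and 7.66 in TL libraries, 1.41, 1.29 and 1.20 in α-GalCer libraries and 1.48, 1.65 and 0.99 in vehicle libraries. The difference was 6.28 between TLs and the vehicle (77.9-fold) and 6.36 between TLs and α-GalCer, with no overlap, and the vehicle libraries were the most spread (SD 0.341, against 0.0209 with TLs and 0.106 with α-GalCer). Of the receptors, the log2 ratio of *Il1r1* to *Il1rl1* was 3.13, 2.96 and 3.06 in TL libraries, 0.64, 0.59 and 0.45 in α-GalCer libraries and 0.54, 0.52 and 0.54 in vehicle libraries. That is a difference of 2.52 between TLs and the vehicle (5.72-fold) and of 2.49 between TLs and α-GalCer.

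**Figure D3:**
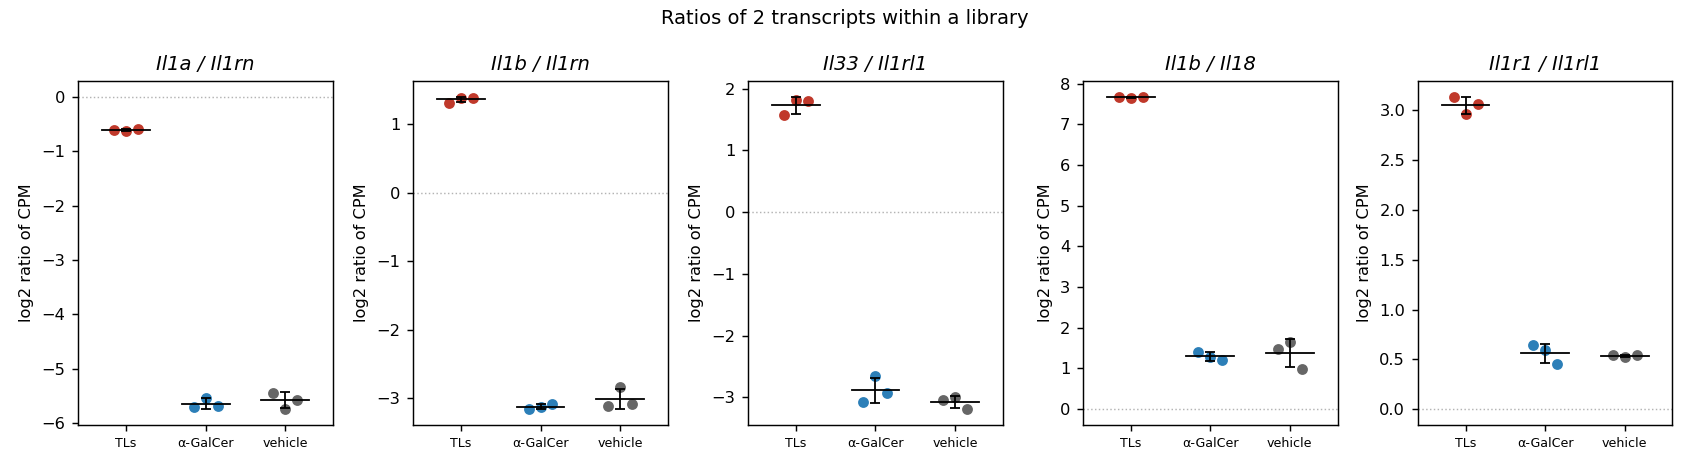
Log2 ratio of the CPM of 2 genes within each library (a different axis in each panel; dotted line, a ratio of 1) in the TL, α-GalCer and vehicle libraries. Points are single libraries, long bars the mean and error bars the SD (n = 3 per group); TL libraries lie 2.52 to 6.28 above the vehicle libraries in the mean, and the α-GalCer and vehicle libraries overlap in every panel.

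α-GalCer and the vehicle gave overlapping levels for each of the 7 genes (850 genes, 6.74% of those tested, did not overlap in this comparison). The log2 fold change of α-GalCer over the vehicle was -0.05 for *Il1a* (95% interval -0.27 to 0.17) and -0.12 for *Il1b* (-0.34 to 0.10). For *Il1rn* it was 0.00 (-0.14 to 0.15) and for *Il18* -0.03 (-0.29 to 0.22). The widest interval was that of *Il33*, at 0.30 (-0.11 to 0.70), and the receptors stood at 0.11 for *Il1r1* (-0.16 to 0.37) and 0.07 for *Il1rl1* (-0.18 to 0.33). All 7 adjusted p-values were 0.99994 in edgeR. These intervals leave room for changes of up to their bounds, and the missing call does not show that the levels were equal. The 5 ratios differed by -0.11 to 0.19 between α-GalCer and the vehicle (exact permutation p = 0.3 to 0.8).

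The positions of the genes, as the order of protein-coding genes in the RefSeq annotation of GRCr8, group some of them. *Il1a* and *Il1b* are direct neighbours on chromosome 3, between *Ckap2l* and *Sirpb3*, and both rose. *Il1rn* lies elsewhere on chromosome 3, beside *Il1f10*, *Il36rn* and *Il36b* on one side and *Psd4* on the other. *Il1r1*, *Il1rl2* and *Il1rl1* follow one another on chromosome 9, with *Il18r1* and *Il18rap* next, and within this run *Il1r1* and *Il1rl2* were higher with TLs while *Il1rl1* was lower. *Il18* and *Il33* lie alone on chromosomes 8 and 1.

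Of 14 other ligands, receptors and binding proteins of the family, 2 could be identified and both were called higher with TLs. *Il1rap*, the co-receptor that IL-1R1 and ST2 share, stood at 89.5, 86.1 and 78.2 CPM in TL libraries, at 56.7, 50.9 and 48.3 CPM in α-GalCer libraries and at 59.9, 40.4 and 57.1 CPM in vehicle libraries, a log2 fold change of 0.69 against the vehicle (SE 0.131, adjusted p = 0.00218) and 0.70 against α-GalCer (adjusted p = 0.00181). *Il1rl2*, the receptor of the IL-36 cytokines, stood at 6.67, 7.68 and 8.20 CPM with TLs, at 3.89, 3.65 and 4.30 CPM with α-GalCer and at 3.98, 3.41 and 3.94 CPM with the vehicle, a log2 fold change of 0.99 against the vehicle (SE 0.156, adjusted p = 0.000619) and 0.93 against α-GalCer (adjusted p = 0.000908). For neither gene did a TL library overlap with the rest. Against the vehicle the groups did not overlap for 46.1% of all tested genes and 92% of those with a symbol. Against α-GalCer these shares were 51.0% and 92.9%. Called were 76.6% (against the vehicle) and 75.0% (against α-GalCer) of tested genes with a symbol. These genes, and those of the next lists, were identified through the same list of the study, which limits their counts in the same way. The other 12, among them the decoy receptor *Il1r2*, the IL-18 receptor chains and the IL-36 cytokines, were not analysed here.

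Of 21 genes of inflammasomes and of cytokine processing and release, 4 could be identified, and 3 were higher and 1 lower with TLs in both comparisons, where 76.6% (against the vehicle) and 75.0% (against α-GalCer) of all tested genes with a symbol were called. *Nlrp3*, the sensor of the best-studied inflammasome, stood at 453.5, 437.7 and 429.0 CPM in TL libraries, at 107.9, 111.4 and 112.5 CPM in α-GalCer libraries and at 111.8, 104.7 and 111.5 CPM in vehicle libraries, and its log2 fold change was 2.01 against the vehicle (SE 0.0533, adjusted p = 6.88e-10). *Nlrc4*, whose product assembles an inflammasome on bacterial flagellin and secretion proteins, had a log2 fold change of 1.73 (SE 0.0654, adjusted p = 1.15e-08). The adaptor *Pycard* (ASC), which links these sensors to caspase-1, ran the other way, with 25.8, 28.2 and 26.3 CPM in TL libraries, 50.4, 41.4 and 55.7 CPM in α-GalCer libraries and 45.1, 52.6 and 43.4 CPM in vehicle libraries (log2 fold change -0.82 against the vehicle, SE 0.115, adjusted p = 0.000281). *Nlrp3* and *Nlrc4* were higher and *Pycard* lower in each TL library than in any other. Of tested genes with a symbol, 92% did not overlap against the vehicle and 92.9% against α-GalCer. No contrast of sensors and adaptor is read from this, since only 4 of the 21 genes could be identified. *Ninj1*, which takes part in membrane rupture, was higher by a log2 fold change of 0.47 (SE 0.0806, adjusted p = 0.0011). Caspase-1 itself was not analysed here.

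Of 26 genes of signalling below IL-1 receptors, many of which also serve Toll-like receptors, 10 could be identified, and 7 were higher, 2 lower and 1 not called with TLs in both comparisons, beside the same 76.6% and 75.0%, so nothing is read from the count. The kinase *Irak2* had a log2 fold change of 1.75 against the vehicle (SE 0.0616, adjusted p = 7.79e-09), at 149.5, 150.3 and 151.6 CPM with TLs, 43.3, 41.7 and 43.2 CPM with α-GalCer and 48.0, 43.7 and 42.8 CPM with the vehicle. *Irak3* (IRAK-M), which restrains the same pathway, had one of 1.58 (SE 0.0722, adjusted p = 4.79e-08), at 151.5, 150.1 and 154.3 CPM with TLs, 53.5, 58.3 and 48.1 CPM with α-GalCer and 52.5, 49.8 and 50.3 CPM with the vehicle. Both genes were higher in every TL library than in any other. Of tested genes with a symbol, 92% did not overlap against the vehicle and 92.9% against α-GalCer. The NF-κB subunit genes *Nfkb1* and *Rela* rose by log2 fold changes of 1.29 and 0.51, and *Map3k8*, a kinase upstream of ERK, by 1.54. *Mapk14*, the p38α kinase, was lower, at -0.58 (adjusted p = 1.45e-05). The other gene that fell, *Map2k6*, a kinase that activates p38, and the gene that was not called, *Tab2*, were named after their values were seen. *Map2k6* had a log2 fold change of -2.72 on only 12 counts over the 3 TL libraries, against 87 over the 3 vehicle libraries, and *Tab2* had one of 0.35 (adjusted p = 0.0129).

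**Figure D4:**
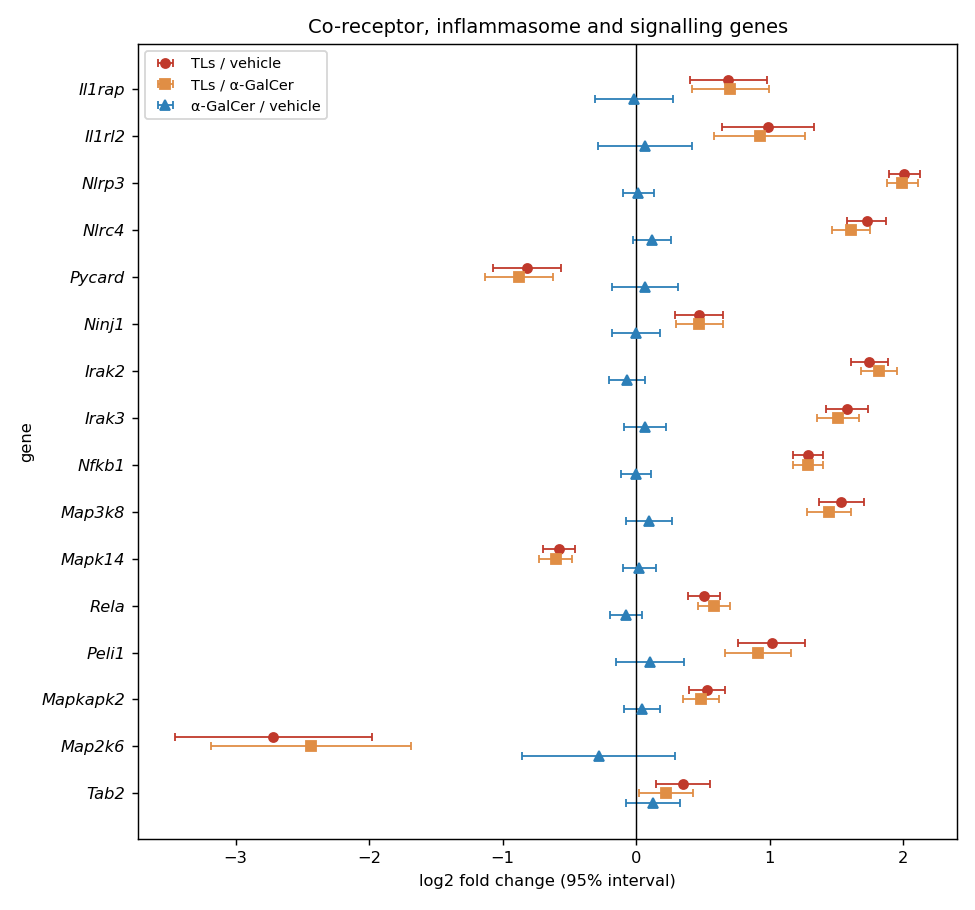
Log2 fold change with its 95% interval of the co-receptor, inflammasome and signalling genes that could be identified, for TLs over vehicle, TLs over α-GalCer and α-GalCer over vehicle (edgeR, n = 3 libraries per group). *Nlrp3*, *Irak2*, *Nlrc4* and *Irak3* lie farthest to the right in the TL comparisons (1.58 to 2.01 against the vehicle), *Map2k6*, *Pycard* and *Mapk14* lie left of 0, and each α-GalCer interval includes 0.

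For each of the 7, the genes with the most similar profile were sought among the 1839 tested genes with a symbol, by the root mean square difference of log2 CPM, centred per gene, over the 9 libraries. The smaller this distance, the closer the profiles in both direction and size. The nearest to *Il1a* were *Ptgs2*, which encodes the prostaglandin-forming enzyme COX-2 (0.101), and the chemokine gene *Cxcl1* (0.189), followed by *Il1b* (0.309). The nearest to *Il1b* were the chemokine gene *Cxcl2* (0.127), *Il1a* (0.309) and *F3*, which encodes tissue factor (0.311). *Il1a* and *Il1b* were thus each among the 3 nearest genes of the other. The libraries of *Il33* were closest to those of *Abca1*, a cholesterol exporter (0.169), *Nfkbiz*, which encodes the nuclear protein IκBζ (0.174), and *Thbs1*, thrombospondin-1 (0.192).

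The genes with smaller changes had nearer partners. The nearest to *Il1rn* were *Cop1* (0.0364), *Bcat1*, an enzyme of branched-chain amino acid breakdown (0.0447), and *Nampt*, an enzyme of NAD synthesis (0.0599). The nearest to *Il1r1* were *Malt1*, a paracaspase of NF-κB signalling (0.0712), *Tiparp* (0.0796) and *AC135826.1* (0.08). Of the 2 genes that fell, *Il18* was closest to *Ly86*, which encodes MD-1, a partner of the receptor RP105 (0.0597), *Clec4a1* (0.11) and *Lpar6* (0.113), and *Il1rl1* to *Lrig1* (0.0723), *Plau*, the urokinase gene (0.102), and *Slc16a14* (0.106). These distances describe 9 libraries in which the groups of the study set most of the variation, and only genes with a symbol could be candidates.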

How the data were processed

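mRNA was selected with poly-T beads, and paired-end libraries were made with the NEBNext Ultra kit. Per the labels and the study's methods, the authors used fastp to clean the reads, HISAT2 to align them to the build Rnor_6.0 and featureCounts to obtain gene-level counts. The raw counts as deposited were used, and tool versions and the settings for strand and shared reads are not given in the sources used here. The EDASeq, iLOO and NOISeqBIO steps of the authors were not repeated.

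Counts of the 9 libraries were fitted together in edgeR 4.0.16 (R 4.3.3) with the group as the only term, after filterByExpr and TMM scaling. The SE was obtained as the size of the log2 fold change over the root of its F statistic. Log2 CPM for ratios, distances and principal components used a prior count of 2. The script was tested on simulated data. No libraries of the same group agreed within sampling noise, and libraries of different groups were not compared in this way. Where replicates were not separate cultures, p-values measure only technical spread.

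The 7 members, the gene lists and the pairs of genes for ratios were chosen with earlier results of these data known. Named genes were all members, all identified family genes, up to 6 of each pathway list by adjusted p, up to 4 of each marker list by level and the 3 nearest profiles. The study's list gave 1981 symbols, was used in part, and its fold changes were not used. Alternatives were RLE and upper quartile scaling, DESeq2 1.42.0, limma-voom (limma 3.58.1), no filter, a mean CPM filter of 1, only the 2 groups compared, a replicate block, leaving out each library, and prior counts of 0.5 and 5.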

Additional observations from a re-analysis of the deposited data

How the results depend on the processing

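In both TL comparisons the 7 genes kept their direction and call under all 17 alternatives, and the 5 ratios kept their direction under all 9 of theirs. Counts of called genes ran from 1785 to 2810 against the vehicle and from 1886 to 3089 against α-GalCer. With upper quartile scaling the called genes were 38.3% higher (1002 higher, 1614 lower) against the vehicle and 36.5% (1000 higher, 1742 lower) against α-GalCer, beside 50.2% (1231 and 1219) and 48.4% (1241 and 1321) with TMM; the 7 genes were unaffected in direction.

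Correlations of same-numbered deviations ran from -0.06 to 0.12, 1 of 9 pairs was over 0.1, and 5 of 9 libraries correlated best with their own number. With 3 libraries per group, these values cannot show whether the replicate numbers pair the libraries. With the replicate block 2256 genes were called against the vehicle, 2332 against α-GalCer and 0 between α-GalCer and the vehicle, with the 7 genes called as before.

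Between α-GalCer and the vehicle, none of the 7 genes was called in any alternative, and signs near 0 turned. DESeq2 and the fit with no filter each called 2 genes, against 0; leaving out single libraries called 0 to 1, the 1 without vehicle replicate 2, where 1472 genes had an unadjusted p under 0.05. For *Il1rn* the log2 fold change was -0.00562 with no filter, -0.00135 with the mean CPM filter and -0.00146 with only the 2 groups. Over fits without single libraries it ran from -0.0625 to 0.0484, that of *Il1a* from -0.181 to 0.0227, *Il1b* from -0.199 to 0.0258, *Il18* from -0.132 to 0.0818, *Il1r1* from -0.0128 to 0.203 and *Il1rl1* from -0.0403 to 0.142. The log2 ratio differences ran from -0.136 to 0.0095 for *Il1a* to *Il1rn*, from -0.268 to 0.0601 for *Il1b* to *Il18* and from -0.0121 to 0.086 for *Il1r1* to *Il1rl1*. The cause was not tested. Depth limits *Il33* most, with 37 to 67 counts in the libraries without TLs.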
